A study of Mus musculus with 29 samples.

Results

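The genes described here are the matrix metalloproteinases (MMPs), the ADAMTS proteases and the tissue inhibitors of metalloproteinases (TIMPs) of mouse colon, followed across 6 models of colitis and their 3 control groups. They were taken by name: every row of the count table whose gene is protein-coding and whose symbol begins with Mmp, Timp or Adamts and a number. That gave 46 of the 54532 genes in the table, of which 23 are Mmp, 4 are Timp and 19 are Adamts genes. No expression value entered the choice.

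MMPs and ADAMTS are zinc-dependent proteases that act outside the cell. MMPs cut collagens, gelatin, laminin, fibronectin and many chemokines and growth factors, and most are made as inactive proenzymes that plasmin or another MMP has to activate. ADAMTS enzymes cut proteoglycans such as versican and aggrecan, process procollagens or trim von Willebrand factor. TIMPs bind the active site of MMPs, and TIMP3, which is held in the matrix, also blocks several ADAM and ADAMTS enzymes. In inflamed gut, MMPs are made by stromal cells, epithelial cells at wound edges, macrophages and neutrophils, and they are known for breaking down the mucosal matrix around ulcers.

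Poly(A) RNA from the colons of 29 mice was sequenced, 3 or 4 mice in each of 9 groups. On the Balb/C background there were 3 wild-type controls, 3 mice given 3% dextran sulfate sodium (DSS, which injures the epithelium) in the water for 5 days and culled on day 10, 3 mice given 3 mg dinitrobenzene sulfonic acid (DNBS, a hapten) in ethanol into the rectum, and 4 mice of an interleukin-10 (IL-10) model. Also on Balb/C were 3 untreated mice labelled Rag2 knockout, a genotype without mature T or B cells, and 4 untreated TRUC mice, labelled as lacking both Tbx21 (the transcription factor T-bet) and Rag2, a genotype known for spontaneous ulcerative colitis. On C57BL/6, labelled Rag1-/-, there were 3 controls, 3 mice that received 500000 naive CD4+ T cells and were culled after 6 to 8 weeks (T cell transfer, TCT), and 3 mice that received 50 µg of an agonist antibody to CD40 (anti-CD40) and were culled after 7 days. The sample labels describe the IL-10 mice as treated for 4 weeks with 750 µg of antibody against the IL-10 receptor, while the study's methods name an Il10 knockout. The labels also call the recipients of T cells Rag2-/- in the treatment text and Rag1-/- in the genotype. For DSS the study's methods name C57BL/6 mice, treated for 5 or 6 days and culled on day 7 or 8. For the T cell transfer they put the cull at 4 to 6 weeks. Strain and times are given here by the labels, and the sources do not settle these differences. The sample labels give no age or sex, and the study's methods give them only around the T cell transfer, so they are not set out for the groups compared here.

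Each model was compared with its labelled control: TRUC with the Rag2 knockout mice, DSS, DNBS and IL-10 with the wild-type mice, and TCT and anti-CD40 with the Rag1-/- mice. DSS, DNBS and IL-10 therefore share 1 set of 3 control mice and TCT and anti-CD40 share another, so their comparisons are not independent of each other. Levels are given as CPM, the count of a gene brought to a fixed library total after scaling by the trimmed mean of M values (TMM). Changes are log2 fold changes ± SE, colitis minus control, from edgeR's quasi-likelihood test with p-values adjusted by the Benjamini-Hochberg method over the 18616 genes tested. A gene is called higher or lower where its adjusted p was below 0.05. Nothing in the sources says whether mice of a group shared a cage or litter, so the p-values measure the spread between these mice. In whole tissue, fewer cells of a type and less RNA per cell cannot be told apart.

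The 29 libraries held 10725564 to 14977094 counts (median 12287039), so that 3 counts, the limit that a count of 0 allows, correspond to 0.179 to 0.314 CPM. These limits and the counting intervals below cover counting error only, since the libraries carried no molecular identifiers. The counts of the genes named as lost did not show their loss. The labels name Rag1, Rag2 and Tbx21 as lost, while a loss of Il10 is named only in the study's methods. Il10 gave 61 to 111 counts in the IL-10 mice and 1 to 4 in the wild-type controls. Tbx21 gave 26 to 52 counts in TRUC, 1 to 7 in the Rag2 knockout controls and 2 to 5 in the wild-type mice. Rag2 gave 57 to 94 counts in TRUC and 15 to 25 in the Rag2 knockout controls against 0 to 1 in the wild-type mice, and also 6 to 20 in the mice labelled Rag1-/- controls and 48 to 99 in the mice labelled anti-CD40. Rag1 gave 20 to 33 counts in the TCT mice and at most 4 in any other library, while Rag2 was at 0 in TCT. A count per gene does not say which part of the gene the reads came from, and the groups are called below by their labels. Because the libraries labelled Rag1-/- controls and anti-CD40 resemble the Rag2-labelled ones at these genes and the TCT libraries do not, TCT is also given below against the wild-type mice and anti-CD40 against the Rag2 knockout mice, with strain then differing for both.

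Of the 46 genes, 40 passed the minimum of a mean count of 3 over all mice. Some passed only through the inflamed groups, among them Mmp7 and Mmp8, so the counts over these 40 are not counts over the family. The other 6 were not tested. Mmp1a and Mmp1b, the mouse relatives of interstitial collagenase, had no count in any mouse. Mmp21 reached 1 count, Mmp20 (enamelysin) 3 and Adamts18 8 in the mouse with the most. Mmp27 had 17, 6 and 10 counts in the DSS mice and 1 in each wild-type control, a ratio of 10.3 (95% counting interval 3.23 to 52.5).

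Stromelysins (Mmp3, Mmp10), matrilysin (Mmp7), macrophage elastase (Mmp12), neutrophil proteases (Mmp8, Mmp9, Mmp25), epilysin (Mmp28) and the inhibitor Timp1 were each called higher in at least 5 of the 6 models. Such recurrence across models was not counted over all genes. The other TIMP genes fell or were not called, and the ADAMTS genes moved in both directions. In TRUC, 12 of the 40 tested genes were called higher and 9 lower, against 22.4% and 23.4% of all genes tested. In DSS, 18 were called higher and 2 lower, against 17.7% and 16.3% of all genes. DNBS had 9 higher and 0 lower, against 3.95% and 2.21%, and DESeq2 as well as an unadjusted p below 0.05 also gave 0 lower. In IL-10, 11 were higher and 12 lower, against 27.2% and 26.1%. TCT had 14 higher and 2 lower, against 16.1% and 14%. Anti-CD40 had 6 higher and 2 lower, against 10.9% and 10.7%. The median log2 change over the 40 was 0.71 in DSS, 0.66 in DNBS, 0.43 in TCT, 0.14 in anti-CD40, 0.07 in TRUC and -0.26 in IL-10, while the median over all genes lay between -0.03 and 0.02 in every model. These medians did not move when genes with hardly any control counts were set to their bound or count ratio.

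The Mmp and Adamts genes gave different counts within a model. Of the 18 Mmp genes tested, 11 were higher and 0 lower in DSS and in TCT, 10 and 3 in IL-10, 8 and 2 in TRUC, 7 and 0 in DNBS, and 6 and 0 in anti-CD40. The Mmp share called higher was 33.3% (anti-CD40) to 61.1% (DSS and TCT), against 3.95% (DNBS) to 27.2% (IL-10) of all genes. Of the 18 Adamts genes tested, 6 were higher and 1 lower in DSS, 3 and 4 in TRUC, 2 and 2 in TCT, 1 and 0 in DNBS, 0 and 1 in anti-CD40, and 0 and 6 in IL-10. In TRUC these are 16.7% and 22.2%, against 22.4% and 23.4% of all genes. In TCT they are 11.1% and 11.1%, against 16.1% and 14%. In DNBS they are 5.56% and 0%, against 3.95% and 2.21%. In IL-10 they are 0% and 33.3%, against 27.2% and 26.1%. Adamts counts in TRUC, TCT, DNBS and anti-CD40 were thus near or below the shares of all genes. Mmp10 was called higher in 6 of 6 models, and 8 further genes in 5. The share of all genes called higher in 5 or 6 models was not counted, so these counts have no background beside them. Models that share controls are also not independent. Another 6 of the 40 tested genes, Adamts2, Adamts7, Adamts17, Adamts20, Mmp23 and Mmp24, were called in none.

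**Figure D1:**
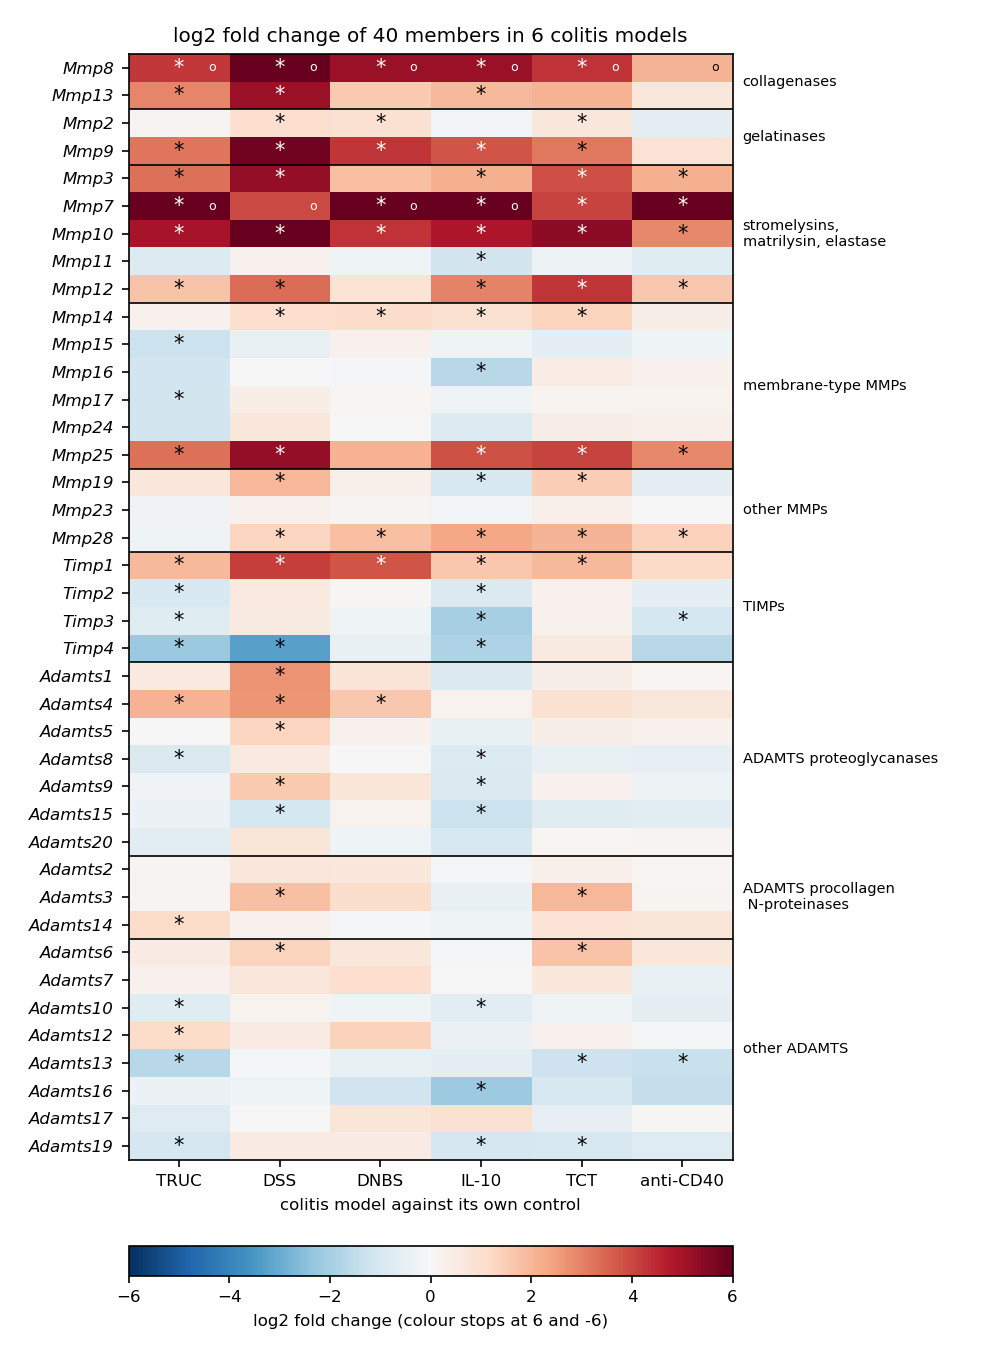
Log2 fold change (colour, colitis minus control) of the 40 tested Mmp, Timp and Adamts genes (rows) in the 6 models (columns). A star marks an adjusted p below 0.05, a small circle marks a control group with at most 3 counts in all, whose fitted value depends on the prior count, and the colour scale stops at 6 in either direction. Mmp10 is called in 6 of 6 columns, and Timp2, Timp3 and Timp4 are lower in the TRUC and IL-10 columns.

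A run of 10 Mmp genes lies side by side on chromosome 9 (GRCm38, chr9:7272514-7699585, 427 kb from the start of Mmp13 to the end of Mmp7), and it holds the collagenases Mmp13, Mmp8, Mmp1a and Mmp1b, the stromelysins Mmp3 and Mmp10, the macrophage elastase Mmp12, matrilysin Mmp7, Mmp20 and Mmp27. Of these, 6 were tested. The sequence next to their starts is shown because these neighbours account for much of the rise in the family while Mmp1a, between Mmp3 and Mmp10, had no count. Promoters from RefSeq (GRCm38.p6), 250 bases before to 50 bases after the start, were searched here for 32 of the 46 genes. The other 14, among them Adamts19, were not searched, so 32 is not a count of all members with a RefSeq promoter. The letters TGAGTCA, the core of the AP-1 site, were searched on both strands (the reverse complement is TGACTCA) and the TATA box letters TATAAA on the sense strand, in the 250 bases before the start. AP-1 letters stood before 7 of the 32 genes, against 4.46% of all 32851 promoters of the same length, and the 7 are Mmp10, Mmp12 at its second listed start, Mmp13, Mmp1a, Mmp1b, Mmp3 and Mmp7. Another listed start of Mmp7 had neither motif. All 7 lie in the chromosome 9 run, and no searched member outside it had AP-1 letters. The count therefore describes neighbouring, related genes and not the family as a whole. TATAAA stood before 9 of the 32, against 7.59% of all promoters. A gene counted where any of its listed starts matched, while the shares of all promoters count each start alone. The gene counts and these shares are therefore not in the same unit. Below are the 100 bases that end next to the start of 6 genes, from the plus strand on which each gene is read, with the matched letters in capitals. The AP-1 letters begin 63 bases upstream of the start in Mmp10 and Mmp7, 46 in Mmp3, 35 in Mmp13 and 73 in Mmp1a. Mmp8, which has neither, is shown for contrast.
Mmp10, chr9:7502242-7502341: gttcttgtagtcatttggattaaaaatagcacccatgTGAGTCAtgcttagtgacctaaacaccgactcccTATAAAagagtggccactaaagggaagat
Mmp3, chr9:7445722-7445821: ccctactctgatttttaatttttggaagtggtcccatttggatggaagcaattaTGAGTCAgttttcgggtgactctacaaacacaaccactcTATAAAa
Mmp13, chr9:7272414-7272513: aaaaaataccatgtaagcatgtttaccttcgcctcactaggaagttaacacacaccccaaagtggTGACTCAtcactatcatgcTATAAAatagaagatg
Mmp7, chr9:7691990-7692089: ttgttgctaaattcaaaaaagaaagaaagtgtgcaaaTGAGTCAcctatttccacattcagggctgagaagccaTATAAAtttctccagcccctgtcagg
Mmp1a, chr9:7464041-7464140: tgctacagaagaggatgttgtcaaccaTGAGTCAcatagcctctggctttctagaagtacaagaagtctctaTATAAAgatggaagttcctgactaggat
Mmp8, chr9:7558329-7558428: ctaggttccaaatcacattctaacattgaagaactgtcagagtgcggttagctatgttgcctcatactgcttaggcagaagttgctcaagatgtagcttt
The same letters stand before Mmp1a, which was silent in every mouse, and before Mmp10, which was called in every model. A match describes the letters of the window and is not a measured binding site.

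**Figure D2:**
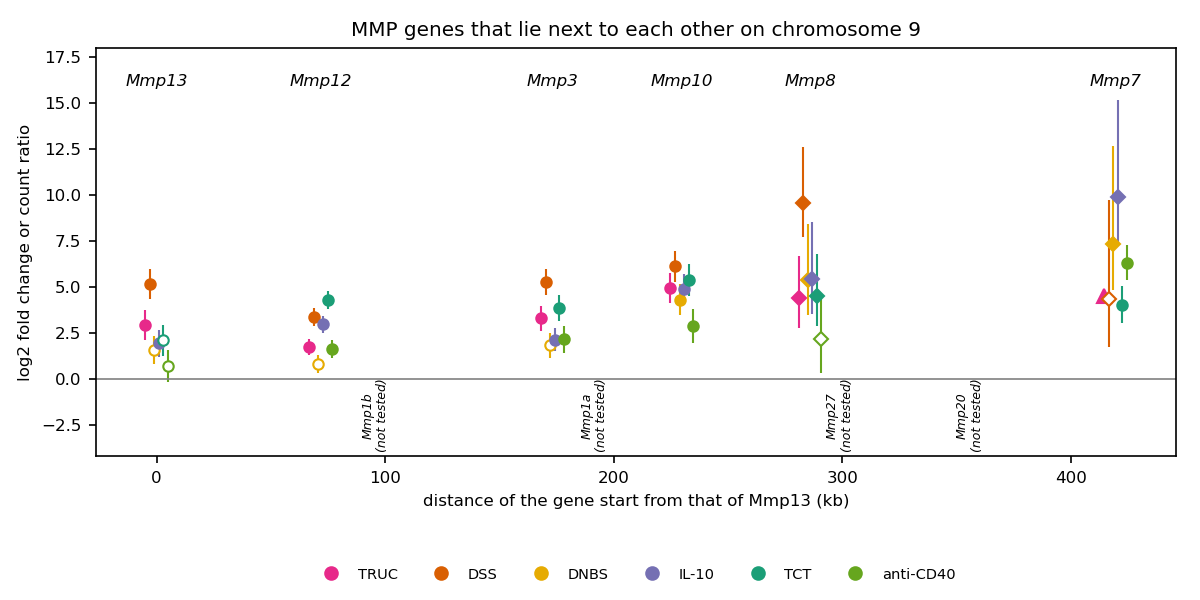
Log2 change of the 6 tested genes of the chromosome 9 cluster in each model, against the distance of the gene start from the start of Mmp13 in kb, with the models set slightly apart at each gene. Circles are fitted log2 fold changes with their SE, diamonds are log2 ratios of counts with 95% counting intervals where 1 of the groups had at most 3 counts, the triangle is the lower bound for Mmp7 in TRUC, and filled symbols are called. Mmp10, 229.8 kb from the start of Mmp13, is filled in 6 of 6 models.

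Mmp10 (stromelysin 2, ENSMUSG00000047562, chr9:7502352-7510240), which cuts matrix proteins and activates other MMPs, was the member with calls in the most models. Wild-type controls had 0.838, 0.866 and 0.738 CPM. DSS mice had 15.2, 27.8 and 131 CPM, DNBS mice 10.7, 19.5 and 19.4, and IL-10 mice 15.9, 20, 10.2 and 50.5. Every mouse of these 3 models lay above every wild-type mouse, and a single DSS mouse stood far above its group. The log2 change was 6.13 ± 0.85 (adjusted p = 1.57e-05) in DSS. It was 4.86 ± 0.82 (4.18e-05) in IL-10 and 4.32 ± 0.83 (0.00513) in DNBS. Without DSS mouse 8 the change in DSS was 4.70 (5.957e-05), and without IL-10 mouse 4 that in IL-10 was 4.21 (0.0001497). In TRUC, Mmp10 was at 18.7, 39.9, 25.6 and 10.7 CPM against 0.620, 0.612 and 1.06 in the Rag2 knockout controls, a change of 4.93 ± 0.83 (6.33e-05). TCT mice had 9.78, 44.6 and 20 CPM and anti-CD40 mice 2.63, 6.77 and 3.73, against 0.730, 0.368 and 0.688 in the Rag1-/- controls. Neither group overlapped its controls, and the anti-CD40 mice lay below every mouse of the other 5 models. The changes were 5.37 ± 0.88 (5.18e-05) in TCT, or 4.65 (0.000361) without TCT mouse 3, and 2.88 ± 0.92 (0.0279) in anti-CD40. The anti-CD40 call was lost without Rag1-/- control 2, 3 or 4 or anti-CD40 mouse 7, with log2 changes of 2.43 to 3.06 and adjusted p of 0.0589 to 0.133.

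Mmp3 (stromelysin 1) rose in 5 models and had its highest levels in DSS, with 59.2, 79.0 and 280.4 CPM against 2.90, 4.53 and 3.20 in wild-type controls. No DSS mouse was near the controls, and the log2 change of 5.29 ± 0.71 (adjusted p = 1.11e-05) was 4.28 (4.435e-05) without DSS mouse 8. IL-10 mice had 10.6, 10.9, 11.7 and 29.6 CPM, a change of 2.13 ± 0.63 (0.00711), with 3 mice close together and mouse 4 above them. DNBS mice had 6.09, 13.7 and 18.1 CPM, above the controls in each mouse, but 1.81 ± 0.66 did not pass (0.0944) and passed only when DNBS mouse 11 was left out (2.15, 0.0422), or with DESeq2 (1.84, 0.000212). TRUC mice had 17.5, 38.6, 18.1 and 6.35 CPM against 1.42, 2.91 and 1.74, a change of 3.30 ± 0.69 (0.000504) with no overlap. TCT mice had 35.7, 9.83 and 38.3 CPM and anti-CD40 mice 10.4, 9.60 and 5.53, against 1.05, 2.58 and 2.07 in their controls. The groups did not overlap in either model. The changes were 3.86 ± 0.71 (0.000217) and 2.14 ± 0.72 (0.0353), and the anti-CD40 call was lost without any 1 of the 3 controls or anti-CD40 mouse 6 or 7 (1.86 to 2.44, 0.0687 to 0.112). Mmp3 and Mmp10 share 8.39% and 8.37% of their 50-base windows, so a small part of their reads could be split between them. Mmp11 (stromelysin 3), made by stromal cells, fell in IL-10 by 1.12 on the log2 scale (SE 0.34, adjusted p = 0.00781) and was called in no other model.

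Mmp7 (matrilysin), an epithelial protease that in mouse activates the defensins of Paneth cells, was almost silent in control colon. The wild-type controls had 0, 1 and 0 counts, the Rag2 knockout controls 0 in each and the Rag1-/- controls 3, 3 and 1. IL-10 mice had 214, 115, 159 and 511 counts, a ratio of 943 to the wild-type controls (95% counting interval 169 to 37303, adjusted p = 2.33e-06). Mouse 4 held most of these counts, and without it the ratio was 594 (106 to 23506, 3.169e-06). DNBS mice had 18, 81 and 67 counts, a ratio of 162 (28.6 to 6430.4, adjusted p = 0.00479). DSS mice had only 5, 1 and 16 counts, a ratio of 20.6 (3.33 to 851) that did not pass (0.0795; 0.0462 with DESeq2), so the model with the highest Mmp3 had the lowest Mmp7. TRUC mice had 51, 87, 72 and 45 counts, at least 22.6-fold higher than the Rag2 knockout controls when these are set to 3 counts per library (adjusted p = 8.14e-05). Anti-CD40 mice had 136, 273 and 150 counts and TCT mice 73, 18 and 18, both above every control. Here the order of these models was the reverse of that for Mmp10, with anti-CD40 at 12.8, 23.4 and 10.8 CPM above TCT at 6.38, 1.54 and 1.67. The log2 changes were 6.32 ± 0.95 (0.000127) in anti-CD40 and 4.03 ± 1.01 (0.00402) in TCT, the latter 3.04 (0.0366) without TCT mouse 1. The single wild-type count was that of mouse 2, so every ratio to these controls rests on it. Mmp7 shares 11.5% of its exon bases with the neighbouring AV064505. Of all genes, 27.2% were called higher in IL-10, 16.1% higher in TCT and 10.7% lower in anti-CD40. Of the 5 Paneth cell markers, 2 passed the filter, and both were called higher in IL-10, 1 was higher in TCT and 1 lower in anti-CD40. The summed level of the 5 was 26.8 to 76.1 CPM in IL-10 against 9.22 to 16.1 in wild-type controls, 56.7 to 121 in TCT against 11.5 to 21.6, and 9.77 to 19.3 in anti-CD40. It was 14 to 89.7 CPM in DNBS and 13.2 to 23.0 in DSS, and in TRUC, where Mmp7 was higher, it was 5.68 to 9.07 against 9.30 to 15.5 in its controls. Defa17 and Defa30 were at 0 in every group. The part of these cells in the Mmp7 result was not tested.

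Mmp12, the macrophage elastase, had its highest level in TCT, where the 3 mice had 51.8, 51.0 and 20.4 CPM against 2.59, 1.62 and 2.07 in the Rag1-/- controls. The log2 change was 4.29 ± 0.49 (adjusted p = 3.85e-07), and no mouse came near the controls. IL-10 mice were close together at 12.4, 10.2, 10.5 and 11.3 CPM against 1.37, 0.932 and 1.97 in wild-type mice (2.97 ± 0.47, 2.41e-05). DSS mice had 6.92, 7.25 and 29.4 CPM, a change of 3.35 ± 0.49 (2.63e-05) that was 2.33 (0.0001453) without mouse 8. TRUC mice had 8.77, 6.94, 7.70 and 7.17 CPM against 2.12, 1.91 and 2.87, and anti-CD40 mice 9.30, 6.26 and 3.88. These rises were 1.73 ± 0.45 (0.00308) and 1.62 ± 0.47 (0.017), and the latter was lost without Rag1-/- control 3 (1.46, 0.0799) or anti-CD40 mouse 6 (1.27, 0.0917). DNBS mice, at 2.99, 2.71 and 1.62 CPM, overlapped the controls (0.80 ± 0.51, 0.34). Of 7 macrophage and monocyte markers, 7, 7, 1, 4, 6 and 2 were called higher in TRUC, DSS, DNBS, IL-10, TCT and anti-CD40. In the same order, 22.4%, 17.7%, 3.95%, 27.2%, 16.1% and 10.9% of all genes were higher. The summed level of the 7 markers was 675 to 868 CPM in TRUC, 568 to 603 in anti-CD40, 466 to 585 in TCT, 351 to 583 in IL-10, 452 to 1656 in DSS and 269 to 329 in DNBS, against 125 to 200.2 over the 9 control mice. In TCT, where Mmp12 was highest, the sum lay below that in TRUC. The median log2 change of the 7 markers was 2.58 in TCT and 1.70 in TRUC. None of the 7 was at 0 in any group, and their part in the Mmp12 result was not tested.

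The collagenases Mmp8 and Mmp13 rose most in DSS. Mmp8, the collagenase stored in neutrophil granules, had 1, 0 and 1 counts in the wild-type controls and 115, 204 and 1295 in DSS mice, a ratio of 757 (95% counting interval 209 to 6252, adjusted p = 9.75e-06). All DSS mice were far above the controls, and mouse 8 held most of the counts. Without it the ratio was 211 (57.9 to 1748) and Mmp8 was still called (1.887e-05). The ratio was 43.4 (11.7 to 364, 0.00309) in IL-10, with 31, 18, 12 and 31 counts, and 40.9 (11 to 344, 0.0323) in DNBS, with 6, 66 and 12, or 12.7 (3.05 to 113) without DNBS mouse 14. In TRUC, 13, 29, 27 and 11 counts against 1, 2 and 0 gave a ratio of 20.9 (6.90 to 103, 0.0116). TCT mice had 12, 16 and 33 counts and anti-CD40 mice 3, 3 and 7, against 1, 2 and 0 in the Rag1-/- controls. The ratio in TCT was 22.5 (7.34 to 112, 0.0182), and that in anti-CD40, 4.49 (1.23 to 24.5), did not pass (0.429). With so few control counts the smaller calls depended on single mice. In DNBS the call was lost without any 1 wild-type mouse or DNBS mouse 14 (0.0786 to 0.245), in TCT without Rag1-/- control 2 or 4 or TCT mouse 5 (0.052 to 0.0812), and in TRUC without Rag2 knockout control 4 (0.0502). Fitted log2 changes moved as well, in TRUC from 4.25 to 5.07 without Rag2 knockout control 2, in TCT from 4.35 to 5.15 without Rag1-/- control 3 and in IL-10 from 5.19 to 4.60 without wild-type mouse 2.

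Mmp13, the main interstitial collagenase of the mouse, had 30.8, 53.3 and 351 CPM in DSS against 4.5, 3.80 and 3.85, a log2 change of 5.16 ± 0.83 (adjusted p = 6.91e-05). TRUC mice had 15, 26.2, 18.2 and 9.85 CPM against 1.51, 2.60 and 2.64 (2.93 ± 0.80, 0.00454). IL-10 mice had 7.17, 12.8, 5.92 and 36.4 CPM (1.93 ± 0.74, 0.0315). Each mouse of the 3 models lay above its controls. Leaving DSS mouse 8 out, the DSS change was 3.37 (0.000759), and the IL-10 call was lost without any 1 wild-type mouse (0.0695 to 0.0875) or IL-10 mouse 4 (1.07, 0.2175). DNBS mice had 6.51, 8.14 and 21.9 CPM and TCT mice 3.41, 12.9 and 11.6, and neither change passed, at 1.58 ± 0.77 (0.207) and 2.09 ± 0.83 (0.0606), while DESeq2 called both (0.00484 and 0.000103). Anti-CD40 mice, at 3.19, 5.23 and 2.22 CPM, overlapped their controls at 1.95, 3.32 and 1.20 (0.69 ± 0.88, 0.617).

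Of the gelatinases, which cut denatured collagen and the basement membrane, Mmp9 rose in 5 models and Mmp2 in 3. Mmp9, found in neutrophils and macrophages, had 0.991, 1.13 and 1.31 CPM in wild-type controls, 12.8, 16.5 and 164 in DSS, 12.2, 15.8, 9.44 and 25.7 in IL-10 and 4.78, 56.3 and 5.71 in DNBS. No mouse of the 3 models overlapped the controls, and DSS mouse 8 and DNBS mouse 14 stood far above the rest of their groups. The log2 change was 5.80 ± 1.00 (adjusted p = 0.000134) in DSS. It was 3.77 ± 0.94 (0.00182) in IL-10 and 4.27 ± 0.97 (0.012) in DNBS. Without DSS mouse 8 the change in DSS was 3.67 (0.00195). Without DNBS mouse 14 that in DNBS was 2.19 and did not pass (0.1736), nor did it without wild-type mouse 1 (0.0711) or 2 (0.0644). TRUC mice had 11.4, 21.3, 13.2 and 6.03 CPM against 1.15, 1.38 and 1.66, and TCT mice 18.6, 12.2 and 10.2 against 0.973, 2.14 and 1.38. Both groups lay wholly above their controls, with changes of 3.20 ± 0.91 (0.00651) and 3.17 ± 0.94 (0.012). The TCT call was lost without Rag1-/- control 2 (2.95, 0.0502). Anti-CD40 mice, at 1.5, 4.37 and 2.44 CPM, overlapped the controls (0.88 ± 1.00, 0.567).

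Mmp2, a product of fibroblasts, was already abundant in control colon, with 62.4, 67.7 and 68.0 CPM in wild-type mice. It was at 111, 138 and 146 CPM in DSS (1.00 ± 0.23, adjusted p = 0.00177), 109, 178 and 89.7 in DNBS (0.93 ± 0.23, 0.0192), and 112, 122 and 84.1 in TCT against 55.9, 71.2 and 70.7 (0.69 ± 0.23, 0.0247). The groups were separate in these 3 models. The DNBS call was lost without any 1 wild-type mouse or DNBS mouse 14 (0.60 to 0.95, 0.0519 to 0.1533) and the TCT call without Rag1-/- control 2 or TCT mouse 1 or 3 (0.58 to 0.64, 0.0587 to 0.0964). In TRUC (0.17, 0.532) and IL-10 (-0.18, 0.489) Mmp2 was not called. Anti-CD40 mice had 29.1, 46.7 and 56.8 CPM (-0.57 ± 0.23, 0.0752).

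Neutrophil markers were counted beside Mmp8, Mmp9 and Mmp25. Of 9 markers 7 were tested, and 7 were called higher in DSS, 6 in TRUC and in IL-10, and 5 in each of TCT, anti-CD40 and DNBS. In the same order, 17.7%, 22.4%, 27.2%, 16.1%, 10.9% and 3.95% of all genes were higher. The summed level of the 9 markers was 131 to 146 CPM in wild-type, 152 to 293 in Rag1-/- and 211 to 339 in Rag2 knockout controls. It was 1536 to 2099 CPM in TRUC, 558 to 887 in anti-CD40, 333 to 589 in TCT, 249 to 927 in IL-10, 502 to 2510 in DSS and 174 to 296 in DNBS. The median log2 change of the 7 tested markers was 9.33 in DSS, 6.19 in IL-10 and 5.83 in TCT. It was 5.73 in TRUC, 4.95 in anti-CD40 and 4.16 in DNBS, so medians and sums ordered the models differently. Elane and Cxcr2 were at 0 in all 3 control groups, and Elane also in TRUC, DNBS and anti-CD40. In anti-CD40 the summed markers were above those of every Rag1-/- control. There Mmp25 was called higher, a call that was lost without some single mice. Mmp8, with 3, 3 and 7 counts, and Mmp9 were not called. The part of neutrophils in the levels of these proteases was not tested.

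**Figure D3:**
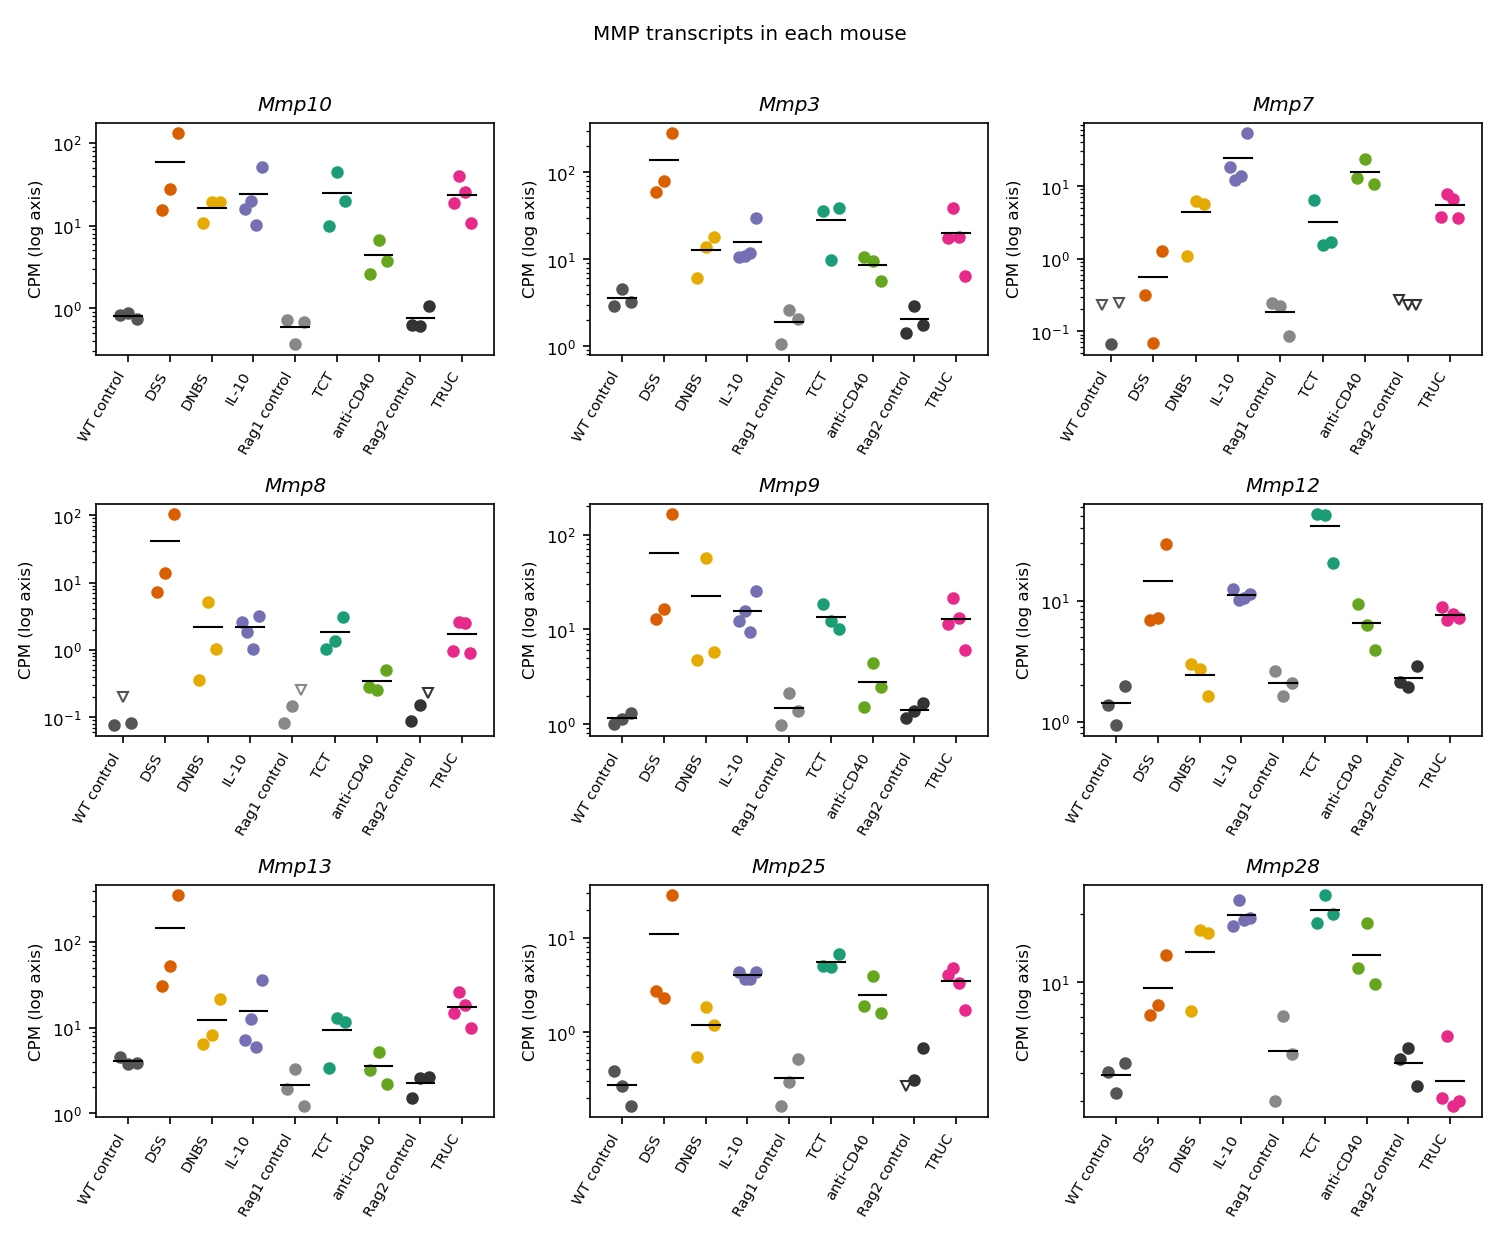
CPM on a log axis of 9 Mmp genes in each mouse of the 9 groups. Circles are mice, open triangles are mice with no count drawn at the 3-count limit, and lines are group means where every mouse had a count. Mmp10 and Mmp3 show separate groups in each model, Mmp7 is lower in DSS than in IL-10 and anti-CD40, and 1 DSS mouse lies above the others for Mmp9, Mmp13 and Mmp25.

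Among the membrane-type MMPs, which are anchored at the cell surface, Mmp14 and Mmp25 rose while Mmp15, Mmp16 and Mmp17 did not rise. Mmp14 (MT1-MMP), the activator of proMMP2, had 88.0, 87.8 and 109 CPM in wild-type controls. It was at 159.6, 170.0, 196 and 186 CPM in IL-10 (0.90 ± 0.22, adjusted p = 0.00179), 138, 156 and 282 in DSS (1.01 ± 0.24, 0.00204) and 139, 305 and 154 in DNBS (1.07 ± 0.24, 0.0111), with no overlap. Leaving DSS mouse 8 out, the DSS rise was 0.63 (0.04141), and without DNBS mouse 14 the DNBS rise was 0.63 and not called (0.1092), nor was it without wild-type mouse 1 (0.0646) or 2 (0.059). TCT mice had 236, 209.9 and 167 CPM against 81.2, 82.1 and 83.7 (1.31 ± 0.24, 0.000179). TRUC mice, at 93.7, 113, 82.7 and 85.9 CPM against 77.4, 83.6 and 77.5, and anti-CD40 mice, at 95.0, 111 and 111, did not pass (0.24 ± 0.22, 0.394 and 0.36 ± 0.24, 0.29).

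Mmp25 (leukolysin, MT6-MMP), a protease of neutrophils, was near the detection limit in controls, at 0.381, 0.266 and 0.164 CPM in wild-type mice. It was at 4.30, 3.64, 3.69 and 4.39 CPM in IL-10 (3.83 ± 0.86, adjusted p = 0.000742), 2.71, 2.32 and 28.3 in DSS (5.29 ± 0.87, 8.53e-05) and 0.537, 1.86 and 1.19 in DNBS, which did not pass (2.07 ± 0.95, 0.182). Without DSS mouse 8 the DSS change was 3.16 (0.0009022). TCT mice had 4.98, 4.87 and 6.67 CPM and anti-CD40 mice 1.88, 3.94 and 1.58, against 0.162, 0.295 and 0.516, and all were above the controls. These changes were 4.06 ± 0.86 (0.000892) and 2.90 ± 0.89 (0.0226), the latter lost without Rag1-/- control 2 or 3 or anti-CD40 mouse 7 (2.39 to 2.84, 0.0764 to 0.125). TRUC mice had 4.06, 4.80, 3.30 and 1.71 CPM against 0, 0.306 and 0.680 (3.31 ± 0.84, 0.00264), a change of 4.33 (0.00423) without Rag2 knockout control 4. Mmp15 (MT2-MMP), found in epithelium, fell in TRUC, from 183, 257 and 231 CPM in the controls to 100.2, 83.7, 76.8 and 107 (-1.28 ± 0.27, 0.000567). Mmp17 also fell in TRUC (-1.12 ± 0.30, 0.00372), and Mmp16 fell in IL-10 (-1.66 ± 0.51, 0.00883).

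Of the remaining MMPs, Mmp28 (epilysin), an epithelial member, rose in 5 models and not in TRUC. IL-10 mice had 17.7, 23.1, 18.9 and 19.1 CPM against 4.04, 3.26 and 4.43 in wild-type controls, and DNBS mice 7.46, 16.9 and 16.5. TCT mice had 18.3, 24.1 and 19.9 CPM and anti-CD40 mice 11.6, 18.2 and 9.83, against 3.00, 7.07 and 4.82. None of these groups overlapped its controls. The log2 changes were 2.33 ± 0.33 (adjusted p = 6.09e-06) in IL-10, 1.80 ± 0.34 (0.00437) in DNBS, 2.06 ± 0.34 (5e-05) in TCT and 1.40 ± 0.33 (0.00469) in anti-CD40. DSS mice had 7.17, 7.93 and 13.2 CPM (1.27 ± 0.34, 0.00557), a call that was lost without mouse 8 (0.95, 0.05635). TRUC mice, at 3.10, 5.78, 2.84 and 3.01 CPM against 4.60, 5.13 and 3.47, had a change of -0.26 ± 0.33 (0.544). Of 7 epithelial markers, 3, 1, 0, 5, 1 and 2 were called higher and 1, 1, 0, 0, 1 and 1 lower in TRUC, DSS, DNBS, IL-10, TCT and anti-CD40. In the same order, 22.4%, 17.7%, 3.95%, 27.2%, 16.1% and 10.9% of all genes were higher. The shares lower were 23.4%, 16.3%, 2.21%, 26.1%, 14% and 10.7%, so the marker counts in DSS and TCT are near those of all genes. The part of these markers was not tested. Mmp28 shares 12.0% of its exon bases with 1700020L24Rik.

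Mmp19, a protease of stromal and immune cells, went both ways. It rose in DSS, with 20, 34.5 and 63.0 CPM against 11.5, 11.3 and 6.73 (1.99 ± 0.32, adjusted p = 7.97e-05), and in TCT, with 22.6, 18.2 and 15.2 CPM against 4.70, 8.10 and 7.49 (1.46 ± 0.33, 0.00146). In IL-10 it fell to 5.31, 5.09, 6.35 and 3.55 CPM (-0.95 ± 0.31, 0.0128), with every mouse below the controls, a call that was lost without wild-type mouse 1 (-0.84, 0.0557) or 2 (-0.86, 0.0512). TRUC mice, at 13.1, 12.8, 12.3 and 11.8 CPM, lay above their controls at 6.64, 6.20 and 10.7 without passing (0.67 ± 0.31, 0.0783). Exons of Gm47093 and Tmem198b cover 28.3% of the exon bases of Mmp19, so part of its reads may belong to them.

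The 4 TIMP genes divided between Timp1 and the rest. Timp1, the inducible inhibitor, was at 1.98, 3.20 and 2.71 CPM in wild-type controls and at 20.2, 30.2 and 91.8 in DSS, 7.76, 7.38, 6.09 and 10.8 in IL-10 and 12.2, 84.8 and 11.8 in DNBS. All 10 inflamed mice were above the controls. The log2 change was 4.16 ± 0.63 (adjusted p = 3.89e-05) in DSS, 1.59 ± 0.59 (0.0255) in IL-10 and 3.77 ± 0.62 (0.00146) in DNBS. Leaving DSS mouse 8 out, the DSS change was 3.25 (0.0003294), and without DNBS mouse 14 the DNBS change was 2.19 (0.01438). The IL-10 call was lost without wild-type mouse 1 (1.42, 0.0919) or 4 (1.61, 0.0589) or IL-10 mouse 4 (1.41, 0.0637). TRUC mice had 7.60, 8.27, 8.06 and 6.68 CPM against 2.30, 1.68 and 2.04 (1.93 ± 0.61, 0.0124), a narrow range well apart from the controls. TCT mice had 5.33, 6.92 and 10.7 CPM against 1.30, 2.28 and 2.32 (1.95 ± 0.64, 0.0223), a call lost without Rag1-/- control 2 (0.0835) or 3 (0.0506) or TCT mouse 5 (0.0983). Anti-CD40 mice, at 3.95, 6.26 and 3.16 CPM, did not pass (1.17 ± 0.65, 0.204).

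Timp3, which binds the matrix, fell in IL-10, TRUC and anti-CD40. IL-10 mice had 26.1, 41.8, 29.3 and 22.4 CPM against 113, 114 and 127 in wild-type controls, a change of -1.98 ± 0.26 (adjusted p = 2.35e-06), and the groups were far apart. Anti-CD40 mice had 27.1, 36.0 and 35.5 CPM against 43.9, 79.6 and 82.8 (-1.06 ± 0.27, 0.00817). TRUC mice had 59.1, 44.3, 46.9 and 36.0 CPM against 69.8, 78.6 and 82.9 (-0.73 ± 0.25, 0.0213), with no overlap, a call lost without Rag2 knockout control 2 or 4 or TRUC mouse 5 (-0.62 to -0.71, 0.0524 to 0.0667). In DSS, with 119, 145 and 257 CPM, Timp3 was not called (0.56, 0.109) and passed without DSS mouse 5 (0.76, 0.0412). DNBS (-0.28, 0.548) and TCT (0.24, 0.548) gave no call. Exons of Syn3 cover 21.3% of the exon bases of Timp3.

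Timp2, the inhibitor that takes part in proMMP2 activation by MMP14, fell in TRUC and IL-10. It was at 73.3, 68.6, 53.2 and 69.5 CPM in TRUC against 107, 115 and 149 (-0.90 ± 0.22, adjusted p = 0.0018) and at 60.8, 89.8, 74.8 and 48.4 in IL-10 against 117, 128 and 136 (-0.89 ± 0.22, 0.00161). The groups were separate in both. DSS mice, at 169, 221 and 181 CPM, were all above the controls without passing (0.58 ± 0.23, 0.0555), though DESeq2, no filter on low counts or a fit of the 2 groups alone gave a call. Anti-CD40 mice had 45.4, 61.7 and 92.1 CPM against 75.0, 114 and 113 (-0.60 ± 0.24, 0.0715).

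Timp4, best known from heart, had the larger of the 2 falls called in DSS. DSS mice had 2.27, 1.91 and 1.28 CPM against 19.6, 16.7 and 17.4, a change of -3.28 ± 0.62 (adjusted p = 0.000334) in a model where no other TIMP was called lower. TRUC mice had 2.36, 1.25, 1.56 and 3.75 CPM against 11, 11.2 and 9.52 (-2.23 ± 0.55, 0.00229), also without overlap. IL-10 mice had 7.17, 9.46, 2.40 and 0.523 CPM (-1.87 ± 0.53, 0.00472), all below the controls but spread widely. This call was lost in DESeq2 (-1.89, 0.0599). DNBS mice, at 20.6, 10.9 and 8.02 CPM, and TCT mice, at 17.2, 8.38 and 3.98, overlapped their controls, and anti-CD40 mice, at 3.01, 1.29 and 2.01 CPM against 8.27, 5.53 and 6.28, did not pass (-1.67 ± 0.62, 0.0541).

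Stromal markers were counted beside the TIMPs. In IL-10, 4 of 7 fibroblast, 4 of 5 smooth muscle and 2 of 4 endothelial markers were called lower, against 26.1% of all genes. In TRUC it was 2, 2 and 1, of which the fibroblast and endothelial shares are near the 23.4% of all genes. Anti-CD40 had 2 of 7 fibroblast, 0 of 5 smooth muscle and 1 of 4 endothelial markers lower, against 10.7% of all genes. Summed smooth muscle markers were at 2626 to 4949 CPM in IL-10 against 6483 to 8053 in wild-type controls, and 2966 to 4349 in TRUC against 5975 to 6582. Summed fibroblast markers were at 506 to 788 CPM in IL-10 against 932 to 1021, 710.1 to 889 in TRUC against 727 to 881, and 420 to 658 in anti-CD40 against 596 to 853. In DSS, where Timp4 fell, 0 of 5 smooth muscle markers were called and their sum was 4722 to 11574 CPM. There 3 of 7 fibroblast and 4 of 4 endothelial markers were higher, against 17.7% of all genes. None of the markers was at 0 in any group. Their part in the TIMP results was not tested.

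**Figure D4:**
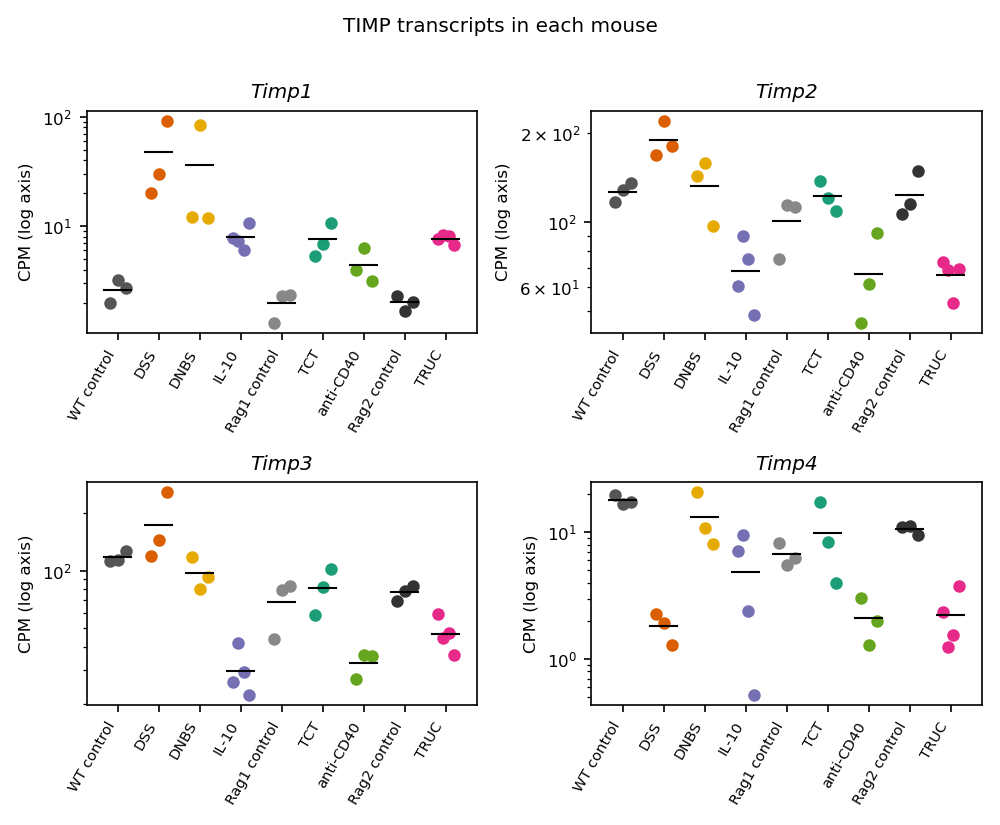
CPM on a log axis of Timp1, Timp2, Timp3 and Timp4 in each mouse of the 9 groups, with circles for mice and lines for group means. Timp1 is above the wild-type controls in every DSS, DNBS and IL-10 mouse, Timp3 is lowest in IL-10 and anti-CD40, and Timp4 is at 1.28 to 2.27 CPM in DSS.

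Of the 7 ADAMTS genes that cut proteoglycans (Adamts1, 4, 5, 8, 9, 15 and 20), 4 were called higher and 1 lower in DSS, against 17.7% and 16.3% of all genes. In IL-10, 0 were higher and 3 lower, against 27.2% and 26.1%. The counts were, in TRUC 1 and 1, in DNBS 1 and 0, and in TCT and anti-CD40 0 and 0. They are to be read against the shares of all genes given above. Adamts4 (aggrecanase 1) rose in 3 models. It was at 11.3, 17 and 44.9 CPM in DSS (2.64 ± 0.42, adjusted p = 6.61e-05) and 7.64, 18.8 and 9.13 in DNBS (1.60 ± 0.42, 0.0252), against 3.96, 3.80 and 3.94 in wild-type controls. In TRUC it was at 8.77, 8.27, 12.8 and 7.33 CPM against 1.77, 2.30 and 2.42 (2.09 ± 0.42, 0.000397). Every mouse of these models was above its controls, and the DNBS call was lost without any 1 wild-type mouse or DNBS mouse 14 (1.11 to 1.62, 0.0719 to 0.1687). Without DSS mouse 8 the DSS change was 1.86 (0.000847). Adamts1, a versicanase, had 24.5, 32.1 and 138 CPM in DSS against 10.1, 11.6 and 8.45 (2.69 ± 0.49, 0.000216), and Adamts5 (aggrecanase 2) had 9.31, 10.2 and 24.1 against 6.17, 5.33 and 6.40 (1.28 ± 0.33, 0.00442). In both genes mouse 8 was the highest and the other DSS mice also lay above the controls. Without it the changes were 1.49 (0.00497) in Adamts1 and 0.71 in Adamts5, which was then not called (0.0957).

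Adamts9, a versicanase, rose in DSS, to 14.9, 26.4 and 35.1 CPM against 9.14, 9.12 and 7.22 (1.58 ± 0.36, adjusted p = 0.00169), and fell in IL-10, to 4.97, 6.55, 4.03 and 2.93 (-0.88 ± 0.35, 0.0367). Both groups were separate from the controls. The fall was lost without wild-type mouse 1 or 2 or IL-10 mouse 1, 3 or 4 (-0.73 to -0.92, 0.052 to 0.1019). Adamts15, which had the highest level per kb of the Adamts genes in wild-type colon, fell in both models: DSS mice had 37.7, 47.0 and 35.1 CPM against 66.2, 92.9 and 91.1 (-1.06 ± 0.36, 0.0249), and IL-10 mice 54.3, 46.0, 25.4 and 9.62 (-1.30 ± 0.33, 0.00234). The DSS call was lost without wild-type mouse 2 or 4 or DSS mouse 5 or 8 (-0.98 to -1.03, 0.0612 to 0.0926). Adamts15 thus went down in DSS while Adamts1, Adamts4, Adamts5 and Adamts9 went up. Adamts8 fell in IL-10 (-0.80, 0.00713) and TRUC (-0.88, 0.0042).

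**Figure D5:**
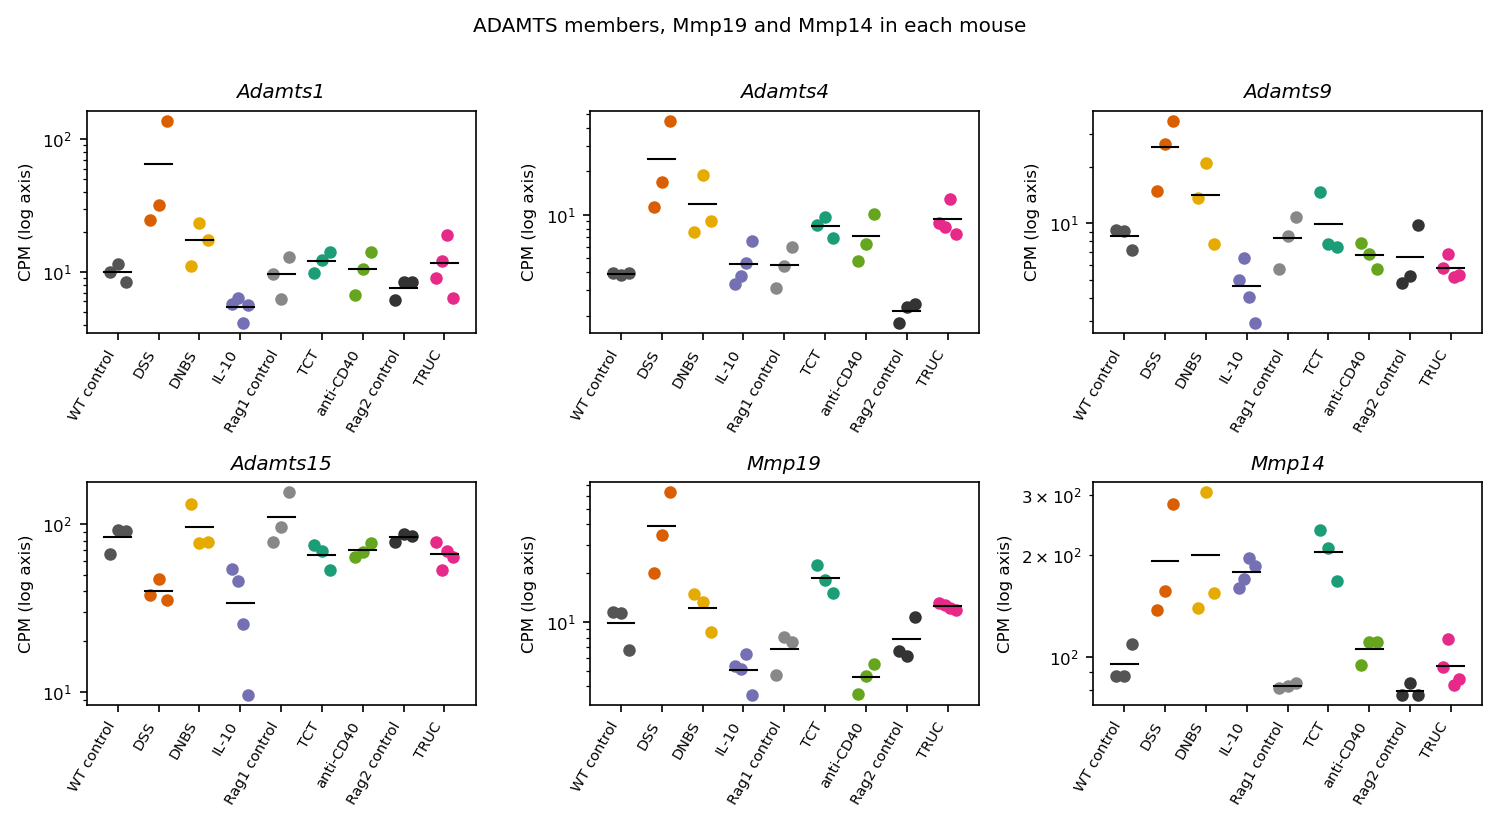
CPM on a log axis of Adamts1, Adamts4, Adamts9, Adamts15, Mmp19 and Mmp14 in each mouse of the 9 groups, with circles for mice and lines for group means. The DSS mice are above the wild-type controls for Adamts1, Adamts4, Adamts9, Mmp19 and Mmp14 and below them for Adamts15.

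The other ADAMTS genes were mostly low. Adamts13, which trims von Willebrand factor, was under 2 CPM in these groups and fell in TRUC (-1.65 ± 0.44, adjusted p = 0.00407), TCT (-1.24 ± 0.45, 0.0378) and anti-CD40 (-1.33 ± 0.45, 0.0355). Both latter calls were lost without any 1 of the shared controls, and with other single mice left out (-0.90 to -1.41, 0.0539 to 0.1855), while without TCT mouse 1 the change in TCT was -2.09 (0.00288). Adamts19 fell in TRUC (-0.99, 0.0121), IL-10 (-1.02, 0.0135) and TCT (-0.94, 0.0415). Adamts10, which acts on fibrillin microfibrils, fell in TRUC (-0.72, 0.013) and IL-10 (-0.65, 0.018), and Adamts16 fell in IL-10 (-2.2, 0.031). Adamts6 rose in DSS (1.33, 0.00201) and TCT (1.70, 0.000451), and Adamts12 rose in TRUC (1.09, 0.041). Of the 3 procollagen N-proteinases, Adamts2, Adamts3 and Adamts14, Adamts3 rose in DSS (1.78, 0.00735) and TCT (2.00, 0.00842), Adamts14 rose in TRUC (1.12, 0.0083), and none fell. Single mice decided several of these low-level calls. Without DSS mouse 8 Adamts3 was not called in DSS (1.33, 0.0671), and in TCT it was not called without Rag1-/- control 3 (0.0522) or TCT mouse 3 (0.0502). Adamts10 was lost without Rag2 knockout control 1 in TRUC (-0.63, 0.0606) and without IL-10 mouse 2 (0.055) or 4 (0.0597). Adamts12 was lost without Rag2 knockout control 2 or 4 or TRUC mouse 2, 3 or 4 (0.87 to 1.12, 0.0546 to 0.1624), and Adamts16 without IL-10 mouse 1, 2 or 3 (0.0664 to 0.0772), while it was -3.07 (0.0147) without mouse 4. Adamts19 was lost in IL-10 without mouse 1 (0.0521) or 3 (0.0523) and in TCT without Rag1-/- control 2 or 4 or any 1 TCT mouse (0.068 to 0.1327).

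Levels can be set against each other only per length, so CPM was divided by exon length in kb and summed over a family. The 23 Mmp genes summed to 90.1 ± 6.08 CPM per kb in wild-type controls (SD, n = 3), 85.0 ± 2.90 in Rag1-/- controls and 90.0 ± 10 in Rag2 knockout controls. In colitis the sum was 329 ± 243 in DSS, 165 ± 61.9 in DNBS, 157 ± 23.3 in TCT, 150.1 ± 38.5 in IL-10 (n = 4), 108 ± 24.2 in TRUC (n = 4) and 99.3 ± 15.2 in anti-CD40. The DSS mice alone ranged from 156 to 607, and without mouse 8 their mean was 189.8 (156 to 224). Without mouse 14 the DNBS mean was 129 (126 to 133), below that of TCT. Without mouse 4 the IL-10 mean was 131 (129 to 134). The 4 Timp genes summed to 53.0 ± 3.46 in wild-type controls, 124 ± 51.9 in DSS and 31.1 ± 4.80 in IL-10. They summed to 31.7 ± 2.71 in TRUC against 45.3 ± 6.34 in its controls. In the control colon Mmp15, Timp2, Mmp2 and Mmp14 had the highest levels per kb. In DSS they were passed by Mmp3 at 77.5 CPM per kb, Mmp13 at 54.3 and Timp1 at 53.4, against 48.9 for Timp2. That order rested on mouse 8: without it Timp2 led at 50.0, Mmp3 was at 38.4, Mmp2 at 37.0, Mmp15 at 30.3, Timp1 at 28.4, Mmp14 at 24.7 and Mmp13 at 15.7. In IL-10 the leading protease was still Mmp15 at 31.3, followed by Mmp14 at 29.9 and Mmp7 at 22.7, and without IL-10 mouse 4 Mmp7, at 13.6, came after Mmp2 at 18.1. In TCT, Mmp14 led at 34.3.

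The size of the change differed between models for most of these genes. An edgeR quasi-likelihood test of whether the 6 log2 changes of a gene were equal gave an adjusted p below 0.05 for 33 of the 40, against 60.5% of all genes tested. Among the members the adjusted p was 7.4e-07 for Timp3, 4.06e-07 for Mmp19, 1.31e-05 for Mmp12 and 2.39e-05 for Timp2. It was 0.0102 for Mmp10 and 0.0176 for Mmp9.

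Against the other control groups 11 of the 16 calls of TCT and 7 of the 8 of anti-CD40 were made again in the same direction. TCT against the wild-type mice gave 13 genes higher and 0 lower, with 16.9% and 13.8% of all genes called. Anti-CD40 against the Rag2 knockout mice gave 8 higher and 5 lower, with 12.4% and 11.8% of all genes. In TCT against wild type, Mmp12 (4.86, adjusted p = 8.71e-07), Mmp10 (4.91, 0.000164), Mmp3 (2.97, 0.00185), Mmp9 (3.57, 0.00731), Mmp14 (1.10, 0.00133), Mmp25 (4.29, 0.000863), Mmp28 (2.41, 2.59e-05) and Mmp19 (0.92, 0.0321) were called. Timp1 (1.53, 0.06), Adamts3 (1.15, 0.0909), Adamts6 (0.51, 0.221) and Adamts19 (-0.57, 0.2199) were not. In anti-CD40 against Rag2 knockout, Mmp10 (2.50, 0.0409), Mmp3 (2.05, 0.0383), Mmp12 (1.48, 0.0241), Mmp25 (2.81, 0.0226) and Mmp28 (1.58, 0.00197) were called higher, and Mmp7 was at least 65.0-fold higher. Adamts4 was also higher there (1.71, 0.00732) and in TCT (1.10, 0.0475). Timp2 (-0.90, 0.00837), Timp3 (-1.23, 0.00295), Timp4 (-2.33, 0.00843) and Mmp2 (-0.65, 0.0412) were called lower in anti-CD40. The falls of Adamts13 were not called in TCT (-0.58, 0.351) or anti-CD40 (-1.05, 0.0921).

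Genes that work with these proteases were counted in the same way, to be read against the shares of all genes called in each model given above. Among 9 ADAM sheddases, membrane proteases that release cytokines and receptors, 7 were called higher and 1 lower in DSS, 5 and 1 in TCT, 4 and 1 in TRUC, 2 and 0 in DNBS, 2 and 0 in IL-10, and 1 and 2 in anti-CD40. Adam10 rose in 6 of 6 models, by 0.36 (DSS) to 0.82 (IL-10) on the log2 scale. These calls were lost in DSS without wild-type mouse 1 or 2 or DSS mouse 6 or 8 (0.0730 to 0.1161), in DNBS without wild-type mouse 1 or 2 or DNBS mouse 14 or 16 (0.0696 to 0.104), and in TCT without Rag1-/- control 2 (0.0565) or 3 (0.0806). Of 8 tested activators and other matrix proteases, 5 were higher and 2 lower in DSS, 3 and 1 in TRUC, 3 and 2 in IL-10, 3 and 2 in TCT, 1 and 0 in DNBS, and 1 and 2 in anti-CD40. In IL-10, the 2 of 9 sheddases higher, and the 3 of 8 activators higher and 2 of 8 lower, are near the 27.2% and 26.1% of all genes. Plaur, the receptor of urokinase, rose in 5 models, from 5.53 to 7.38 CPM in wild-type mice to 44.8 to 320.1 in DSS (4.40 ± 0.61, adjusted p = 1.58e-05), while in anti-CD40 it had 1.46 (0.0653). Leaving DSS mouse 8 out, the DSS change was 2.81 (3.375e-05), and the DNBS call was lost without wild-type mouse 1 or 2 or DNBS mouse 16 (2.16 to 2.46, 0.064 to 0.0764). Of 8 other inhibitors and receptors, 4 were higher and 1 lower in DSS, 3 and 2 in IL-10, 2 and 0 in TCT, 1 and 0 in DNBS, 0 and 1 in TRUC, and 0 and 1 in anti-CD40. Of all genes, 17.7%, 27.2%, 16.1%, 3.95%, 22.4% and 10.9% were higher in these models. The shares lower were 16.3%, 26.1%, 14%, 2.21%, 23.4% and 10.7%.

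The membrane-bound MMP inhibitor Reck fell in TRUC (-1.08, adjusted p = 0.00233), IL-10 (-1.21, 0.000691) and anti-CD40 (-0.97, 0.0192), the last lost without Rag1-/- control 3 or anti-CD40 mouse 6 or 7 (-0.75 to -0.80, 0.0934 to 0.1308). A2m, a circulating protease inhibitor, rose in DSS (2.26, 0.0335) and IL-10 (2.09, 0.0302), calls lost without wild-type mouse 1 or 2, and without DSS mouse 8 (1.71, 0.1652) or IL-10 mouse 3 (0.0547) or 4 (1.49, 0.132). In TCT it had a count ratio of 22.1 (95% counting interval 3.54 to 917, adjusted p = 0.0268), a call lost without Rag1-/- control 2 or 4 or TCT mouse 1 (2.93, 0.171) and against the wild-type controls (0.94, 0.4457). Vcan (versican), a substrate of Adamts1, 4, 5, 9 and 15, rose in DSS (1.78, 0.000176), TRUC (1.47, 0.000527) and DNBS (1.10, 0.0372) and fell in IL-10 (-0.92, 0.0112). The DNBS call was lost without any 1 wild-type mouse or DNBS mouse 11 or 14 (0.81 to 1.21, 0.0535 to 0.1981). Adamtsl3, an ADAMTS-like protein without a protease domain, fell in TRUC (-1.11, 0.0139) and IL-10 (-1.09, 0.0125), calls lost without TRUC mouse 4 (0.0507) and without wild-type mouse 1 (0.0578). Of the 5 ADAMTS-like genes, 2 were lower in TRUC, 3 in IL-10, 1 in TCT and 1 in anti-CD40. Of all genes, 23.4%, 26.1%, 14% and 10.7% were lower in these models. Only Adamtsl3 in TCT was higher (1.20, 0.0208), where 16.1% of all genes were higher. It was not called against the wild-type controls (-0.00157, 0.9993).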

How the data were processed

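Poly(A) RNA of 29 mouse colons was measured as a table of raw counts per gene, which the authors deposited. The submitters' processing notes name Trimmomatic, HISAT2, HTSeq and the build GRCm38. Their versions and the strand setting of the counting are not given in the sources used here. Positions are from GENCODE (GRCm38). The 92 spike-in rows held 0 counts and stayed out. Mmp1a is protein-coding in RefSeq and a polymorphic pseudogene in GENCODE.

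Genes averaging 3 or more counts per mouse were fitted together in 9 groups with edgeR 4.0.16 (R 4.3.3) by the quasi-likelihood test, with TMM scaling and Benjamini-Hochberg adjustment over 18616 genes, and checked on simulated data. SE is the size of the log2 change divided by the root of F. Where a group held at most 3 counts, the ratio of the counts per scaled library is given with an exact (Clopper-Pearson) 95% interval, and for 0 counts a bound at 3 counts per library. No 2 mice of a group were alike within counting noise (lowest chi-square over degrees of freedom 3.65). The alternatives were RLE and upper quartile scaling, no filter, filterByExpr, the 2 groups alone, DESeq2 1.42.0, a replicate block, the other control group, and leaving out each mouse.

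The members, gene lists and rules were chosen with earlier results of these data known. Named by rule were members called in 1 direction in at least 4 models or in opposite directions in 2, the 3 largest called changes without overlap in each model, the TIMPs, and the gene of each pathway list with the most calls, which gave 20 genes, 15 of them members. Adamts1, 3, 4, 5, 6, 8, 10, 12 to 16 and 19, Mmp2, 11, 13, 15, 16, 17 and 27, Reck and the shared-control values were named after their values were seen.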

Additional observations from a re-analysis of the deposited data

Results flagged for a closer look

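In the groups of 4 mice, 3 values stood apart from the rest of their group. The gap between the highest mouse and its nearest neighbour, as a share of the group's range, was 0.945 for Mmp3 and 0.853 for Mmp7 in IL-10, both in mouse 4, and 0.913 for Mmp28 in TRUC, in mouse 3. These exceeded Dixon's 95% critical value for 4 samples, and 80 gene and group pairs were examined, of which chance flags about 1 in 20. Groups of 3 mice were not examined in this way.

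The size or direction of the change differed between the 6 models, by edgeR's quasi-likelihood test of equal changes, in 38 of the genes named here. The adjusted p was lowest among the Mmp genes for Mmp19 (4.06e-07), Mmp12 (1.31e-05), Mmp2 (2.39e-05), Mmp7 (4.31e-05), Mmp8 (7.06e-05), Mmp3 (7.29e-05), Mmp28 (0.000274) and Mmp13 (0.000316). Further Mmp genes were Mmp25 (0.00758), Mmp14 (0.00761), Mmp10 (0.0102), Mmp9 (0.0176), Mmp11 (0.0203), Mmp15 (0.0215), Mmp17 (0.0292), Mmp24 (0.0345) and Mmp16 (0.0354). The inhibitors were Timp3 (7.4e-07), Timp2 (2.39e-05), Timp4 (0.000382) and Timp1 (0.00158). The Adamts genes were Adamts1 (2.67e-05), Adamts9 (7.9e-05), Adamts4 (0.000268), Adamts8 (0.000524), Adamts6 (0.000927), Adamts3 (0.00126), Adamts19 (0.00126), Adamts5 (0.00156), Adamts15 (0.00728), Adamts12 (0.0113), Adamts7 (0.0157) and Adamts10 (0.0173). Of the genes outside the families they were Vcan (1.55e-06), Reck (9e-05), Adamtsl3 (0.00015), Plaur (0.00876) and Adam10 (0.0217). Mmp19 and Adamts9 rose in DSS and fell in IL-10, and Vcan did likewise. DSS, DNBS and IL-10 share a control group, and TCT and anti-CD40 share another, so part of each difference is a difference between inflamed groups alone.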

How the results depend on the processing

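RLE and upper quartile scaling, filterByExpr and DESeq2 left every count of called members within 1.5 times its value, and 0 members were lower in DNBS by edgeR, by DESeq2 and at an unadjusted p below 0.05. Without a filter on low counts 1 member was lower in TCT. Against the other control group 0 were lower in TCT and 5 in anti-CD40. With the 2 groups fitted alone 3 were higher in DNBS. Adamtsl3 in TCT turned to -0.00157 (adjusted p 0.9993) against the wild-type mice. The cause was not tested in any of these.

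Leaving out 1 mouse at a time gave 15 to 19 members higher and 1 to 3 lower in DSS, 4 to 11 and 0 in DNBS, 9 to 12 and 9 to 12 in IL-10, 10 to 14 and 0 to 2 in TCT, 2 to 6 and 1 to 4 in anti-CD40, and 11 to 12 and 8 to 10 in TRUC. The change differed between models in 30 to 34. DNBS fell to 4 higher without wild-type mouse 1 or 2 or DNBS mouse 14. DSS had 1 lower without wild-type mouse 2 or 4 or DSS mouse 5 or 8. TCT had 0 lower without Rag1-/- control 2 or 4 or TCT mouse 3 or 5 and 1 without control 3. Anti-CD40 had 3 higher without Rag1-/- control 2 or mouse 7 and 2 without control 3, with 4 lower without control 2 or mouse 8 and 1 without control 3 or 4 or mouse 6 or 7. Over the genes named, leaving out a mouse kept 1588 calls or non-calls, ended 134 and added 22.

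Some replicate numbers recur in TRUC and its controls and in IL-10 and its controls. Same-numbered mice deviated together with a correlation of only -0.05 to 0.06, so no pairing by number was seen. With so few pairs a weak pairing could be missed. With a replicate block in the 2 groups alone, 7 members were lower in IL-10 and 11 higher, against 12 and 11 without the block. TRUC then had 11 higher and 9 lower, against 14 and 12. At these depths a gene under about 0.179 to 0.314 CPM cannot be told from 0.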
